A study of Homo sapiens with 16 samples.

Results

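The genes described here are 51 human genes of DNA replication and S phase, taken as a named list of protein-coding symbols among the 58735 genes of 3 deposited expression tables. All 51 had at least 1 FPKM (fragments scaled by exon length and library size, a level that can be compared between genes) in at least 2 libraries, as did 16284 genes in all. RNA sequencing was done in human lung cancer lines. NCI-H1975, an established lung adenocarcinoma line with a mutant EGFR, was labelled as untreated control, magnolin (a lignan of magnolia flower buds) or the chloroform part of Flos Magnoliae, the dried buds, with 4 libraries each. HCC827, another EGFR-mutant adenocarcinoma line, is described from 2 parental libraries. All these groups carry the genotype label WT. The labels used here give no dose, time or vehicle, and do not name separate cultures behind the replicates, so a p-value here covers sample-to-sample spread alone and that spread could be technical. NCI-H1975 replicates 1 and 2 were deposited in one table (set A), replicates 3 and 4 in another (set B) and HCC827 in the last, each normalized on its own.

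Replication starts from origins that are licensed when ORC, CDC6 and CDT1 load the MCM2 to MCM7 helicase ring on DNA. CDC45 and the GINS complex then turn the ring into an active helicase, primase and the polymerases copy both strands, the clamp PCNA holds polymerases on DNA, and FEN1 and LIG1 finish the lagging strand. Many of these genes are transcribed as cells enter S phase, under the E2F factors, and are used in tumours as a measure of how many cells are cycling.

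Because E2F control is what these genes are known for, their promoters were searched for 4 spelled-out E2F words, TTTCCCGC, TTTCGCGC, TTTGCCGC and TTTGGCGC, on both strands, where words may overlap each other. RefSeq promoters (build GRCh38.p14, 250 bases before to 50 after a start, any listed start of a gene) were matched for 43 of the 51 genes. At least 1 word was present in 24 of the 43 (55.8%), in 3.99% of the 27305 genes in the whole promoter table, and in 1 of 16 matched mitosis genes (6.25%). The word TTTGAA, the CHR element known from promoters of mitotic genes, gave the opposite order: 1 of the 43 replication genes (2.33%), 11 of the 16 mitosis genes (68.8%) and 18.2% of all genes. CCAAT was found in 26 of 43 (60.5%), 14 of 16 and 39.7%. A match is a description of the letters and not a binding site.

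Shown here are promoter stretches of 5 genes with an E2F word upstream of their first listed start, in bases that no GENCODE 29 exon covers. Genes whose uncovered stretch at the word was too short or too long to print were passed over. Of the rest, these 5 had the largest falls in the set B fraction libraries. Capitals mark E2F words, which appear as GCGGGAAA, GCGCGAAA or GCGCCAAA where they lie on the other strand. All sequences are from RefSeq, build GRCh38.p14, 5′ to 3′ on the gene's strand. E2F2 lies at chr1:23531234-23531383 (minus strand), PCNA at chr20:5126627-5126776 (minus), POLA1 at chrX:24693768-24693917 (plus), MCM3 at chr6:52284882-52284992 (minus) and MCM6 at chr2:135876444-135876593 (minus).
E2F2: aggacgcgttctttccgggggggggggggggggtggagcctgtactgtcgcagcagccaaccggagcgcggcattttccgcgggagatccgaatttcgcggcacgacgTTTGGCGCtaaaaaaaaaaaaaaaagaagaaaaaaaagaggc
PCNA: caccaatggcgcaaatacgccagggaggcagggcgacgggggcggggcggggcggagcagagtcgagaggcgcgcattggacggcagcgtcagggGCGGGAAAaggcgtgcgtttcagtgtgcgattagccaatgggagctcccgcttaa
POLA1: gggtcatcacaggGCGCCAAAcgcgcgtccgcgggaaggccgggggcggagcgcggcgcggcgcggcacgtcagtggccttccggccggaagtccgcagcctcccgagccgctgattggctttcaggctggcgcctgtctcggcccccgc
MCM3: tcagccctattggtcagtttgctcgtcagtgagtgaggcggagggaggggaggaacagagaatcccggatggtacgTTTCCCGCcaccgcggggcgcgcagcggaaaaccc
MCM6: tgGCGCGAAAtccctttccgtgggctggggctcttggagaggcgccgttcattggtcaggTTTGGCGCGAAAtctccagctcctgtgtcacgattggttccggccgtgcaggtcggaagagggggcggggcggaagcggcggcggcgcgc
Counted from -1 just before the start, the word begins at position -42 in E2F2 and -59 in PCNA. MCM6 has 3 words in the printed stretch, of which a pair overlaps. POLA1 and MCM3 hold theirs further out, at positions -137 and -174.

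Rebuilt read totals per library were 18392377 to 21312671 in set A, 15962587 to 17039090 in set B and 15863416 to 16383921 in HCC827. Set A is uneven: the 3 libraries numbered 1 had 172 to 193 FPKM of the epithelial adhesion gene EPCAM and 54.2 to 74.2 of CDH1, against 9.62 to 14.4 and 4.88 to 5.92 in the 3 numbered 2, and 7.65 to 13.0 and 4.89 to 9.39 in set B. Replicates lay much closer in set B. The median coefficient of variation over the 51 genes was 6.41%, 5.54% and 7.96% for control, magnolin and fraction there, against 20.6%, 31.2% and 16.4% in set A. The mitochondrial share of reads in set B was 5.84% and 5.83% in control, 6.40% and 6.38% in magnolin and 8.17% and 7.04% in fraction libraries. The epithelial markers as a list of 5 were all above 0 in every library. The 5 blood cell markers had 3 or 4 members at 0 in each library and a summed level of at most 0.756 FPKM.

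With the chloroform fraction in set B, most replication genes fell. Limma, with p-values adjusted over all 14673 genes tested, called 42 of the 51 lower and 0 higher, where 11.6% of all genes were called lower, 8.33% higher and 19.9% in either direction. With the replicate block 38 were called lower, where 8.68% of all genes were. The 51 genes were chosen with earlier results of these data known, so these counts are not independent of those results. The median change of log2(FPKM + 1) was -0.69, against -0.01 for all genes tested. The median gene stood at 58.6% of its control level, with a range from 19.0% (E2F2) to 87.3% (POLE), and 13 of 51 were at 50% or less. In all 51 genes both fraction libraries were below both control libraries, a pattern that 32.7% of all tested genes shared. Replication genes made up 0.393% and 0.417% of rebuilt reads in control and 0.228% and 0.249% in fraction libraries. In bulk RNA, fewer cells in S phase and less of each RNA per cell cannot be told apart. The mitochondrial share given above moved in the same libraries, and its part in the result was not tested. Fewer genes were called on leaving out control replicate 3 (median -0.76) or control replicate 4 (median -0.64). Such a fit has 1 control library, which is assumed to vary like the other groups, and it has fewer degrees of freedom.

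**Figure D1:**
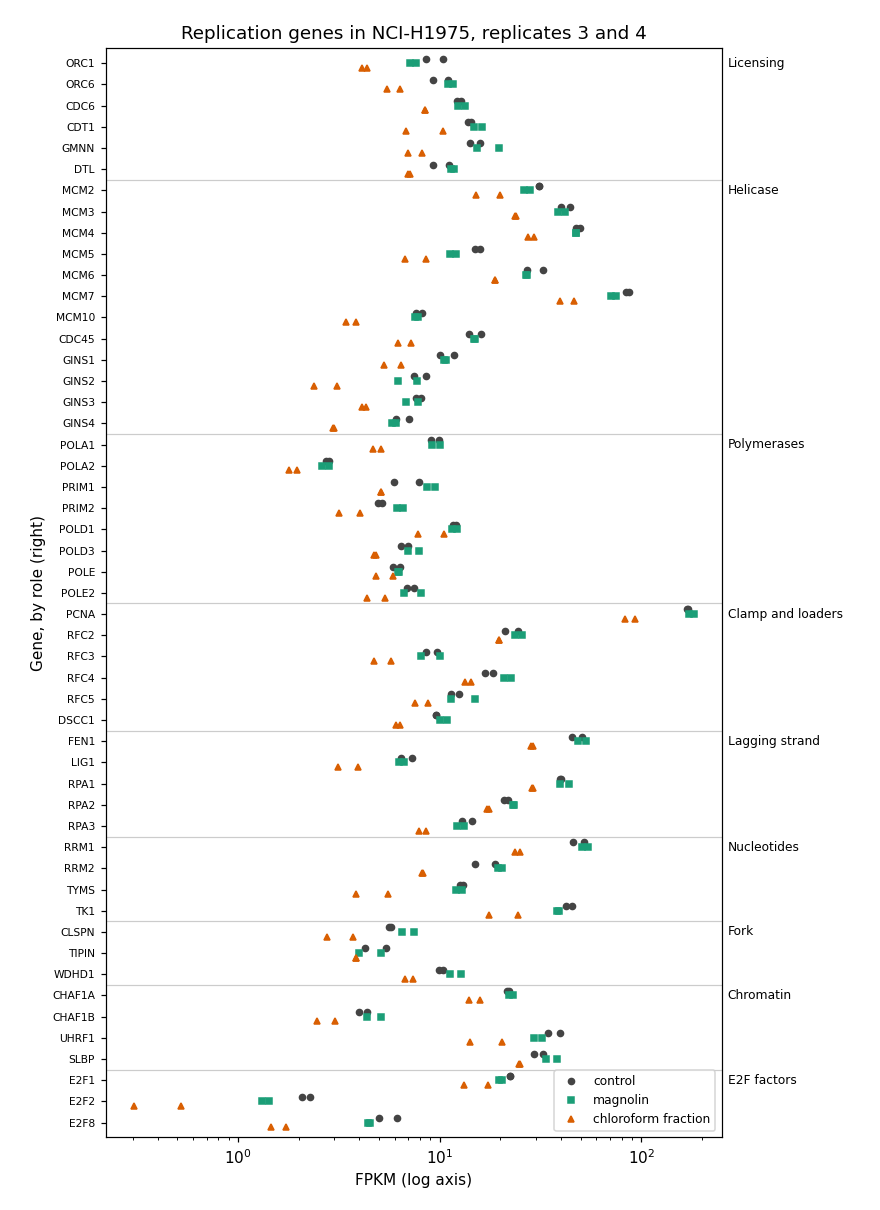
FPKM of the 51 genes (vertical axis, by role) on a log axis in the 6 set B libraries, with 1 point per library. Fraction points (triangles) lie left of both control points (circles) in all 51 genes. Both magnolin points (squares) lie left of both controls in 11 genes, right of both in 13, and neither in 27.

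All 6 licensing genes fell, with a median of -0.68. GMNN, which blocks CDT1 outside G1, was at 14.2 and 15.8 FPKM in control and 6.99 and 8.21 in fraction libraries. Its log2 change was -0.90 (SE 0.14, limma adjusted p = 0.00967). CDT1, the loader that GMNN binds, was at 13.8 and 14.3 in control and 6.85 and 10.5 in fraction libraries. The fraction libraries of CDT1 were both low but lay apart, and the log2 change of -0.66 (SE 0.18, limma adjusted p = 0.0468) passed only without the replicate block (adjusted p = 0.0616 with it). ORC1, the origin recognition subunit, had the largest licensing fall, from 8.57 and 10.4 FPKM to 4.10 and 4.35. ORC6, CDC6 and DTL, which targets CDT1 for destruction, changed by -0.69, -0.52 and -0.47.

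All 12 helicase genes fell, with a median of -0.86 and a range from -1.27 (GINS2) to -0.64 (MCM6). MCM7, the most abundant of the ring (hg38 chromosome 7, 100092728 to 100101940, minus strand), was at 83.7 and 87.0 FPKM in control and 39.7 and 46.2 in fraction libraries. Its log2 change was -0.98 (SE 0.09, limma adjusted p = 0.00214). MCM4 went from 47.4 and 49.8 to 27.4 and 29.5 FPKM. The 6 ring genes together went from 253 to 139 FPKM, and MCM7 over MCM5, the highest over the lowest, was 5.52 in control and 5.60 in fraction libraries.

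GINS2, part of the 4-subunit GINS complex, had the largest helicase fall. It was at 7.48 and 8.57 FPKM in control and 2.39 and 3.12 in fraction libraries (log2 change -1.27, SE 0.14, limma adjusted p = 0.00373). By mean level GINS2 ranked second of the 4 after GINS1 in control and lowest in fraction libraries. These ranks did not hold in every library. GINS3 was above GINS2 in control replicate 3 (8.05 FPKM), and GINS4 was below it in fraction replicate 4 (2.96 FPKM). The highest over the lowest GINS gene went from 1.67 to 2.13. CDC45, the helicase partner, was at 14.0 and 16.1 FPKM in control and 6.21 and 7.25 in fraction libraries (log2 change -1.05).

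Polymerases had the smallest median of the 9 roles, at -0.40, and 3 of 8 genes were called lower. POLA1, the catalytic subunit of the polymerase that starts each strand, was at 9.03 and 9.96 FPKM in control and 5.14 and 4.68 in fraction libraries (log2 change -0.83, SE 0.09, limma adjusted p = 0.00341). POLD3, a subunit of polymerase delta, changed by -0.42. POLE2, of polymerase epsilon, changed by -0.49 and was lost with the replicate block (adjusted p = 0.0751).

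The other 5 polymerase genes were lower in both fraction libraries but did not pass. POLE, the leading-strand polymerase, was at 6.37 and 5.90 FPKM in control and 4.82 and 5.90 in fraction libraries, so that its groups nearly touch. Its log2 difference was -0.17 (SE 0.11, limma adjusted p = 0.305), the smallest of all 51. POLD1, of polymerase delta, had 12.1 and 11.6 FPKM in control and 7.84 and 10.6 in fraction libraries. PRIM1, the primase, had 5.93 and 7.89 in control and 5.14 in both fraction libraries. PRIM2, its partner subunit, had 4.92 and 5.20 in control and 4.03 and 3.16 in fraction libraries. POLA2, with 2.74 and 2.82 in control and 1.79 and 1.96 in fraction libraries, had the adjusted p nearest the threshold of 0.05 of these (0.0512, limma). The log2 differences of these 4 were -0.35 to -0.41.

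Of the clamp and its loaders, 4 of 6 fell, with a median of -0.53. PCNA (hg38 chromosome 20, 5114953 to 5126626, minus strand), whose promoter is printed above, was the most abundant of the 51 genes. It had 168 and 170 FPKM in control and 83.3 and 93.3 in fraction libraries (log2 change -0.93, SE 0.08, limma adjusted p = 0.00152). RFC2 to RFC5 load the clamp, and all 4 had negative differences. RFC3 changed by -0.71. RFC2 had 21.2 and 24.5 in control and 19.6 in both fraction libraries, and missed the threshold (log2 difference -0.21, adjusted p = 0.174). RFC4 had 16.7 and 18.4 in control and 13.3 and 14.3 in fraction libraries, at the edge of the threshold (log2 change -0.32, limma adjusted p = 0.0497, and 0.0534 with the replicate block). RFC5 had 11.4 and 12.5 in control and 8.73 and 7.54 in fraction libraries, and was not called (limma adjusted p = 0.0559). The highest over the lowest of the 4 loader genes went from 2.49 to 3.76. DSCC1, of an alternative loader, changed by -0.55.

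All 5 lagging strand genes fell, with a median of -0.67. FEN1, the flap nuclease, was the highest at 45.6 and 50.6 FPKM in control and 28.4 and 29.1 in fraction libraries (log2 change -0.72, SE 0.08). LIG1, the ligase, changed by -0.80. RPA1, RPA2 and RPA3 form the complex that coats single-stranded DNA and changed by -0.46, -0.29 and -0.67. RPA2 had 21.9 and 21.0 in control and 17.6 and 17.2 in fraction libraries, and was lost with the replicate block (adjusted p = 0.0343 without it and 0.0683 with it, limma).

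All 4 genes of nucleotide supply fell, with a median of -1.01. RRM1, the large subunit of ribonucleotide reductase, was the highest at 45.8 and 51.8 FPKM in control and 25.0 and 23.5 in fraction libraries (log2 change -0.98, SE 0.09, limma adjusted p = 0.00194). RRM2, the small subunit, was at 15.1 and 18.9 in control and 8.15 and 8.28 in fraction libraries (log2 change -0.96). TYMS, which makes thymidylate, was at 13.1 and 12.6 in control and 3.85 and 5.56 in fraction libraries (log2 change -1.29, SE 0.15, limma adjusted p = 0.00364). TK1, the thymidine kinase, changed by -1.04. Of TYMS exon bases 46.6% lie in genes of the opposite strand (ENOSF1 and TYMSOS) and 20.2% of those of RRM2 lie in another gene of the same strand. The labels do not say which of 2 library types, with or without strand, was used, so TYMS reads there cannot be assigned with certainty to 1 gene. In RRM2 the shared bases lie on the same strand, so neither library type would separate the reads by strand.

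Of 3 fork genes 2 fell: CLSPN, the checkpoint mediator, by -0.67 and WDHD1, which links polymerase alpha to the helicase, by -0.46. WDHD1 was at 9.90 and 10.4 FPKM in control and 7.40 and 6.77 in fraction libraries. TIPIN, of the fork protection complex, had 4.26 and 5.44 in control and 3.86 and 3.87 in fraction libraries and did not pass (log2 difference -0.26, limma adjusted p = 0.252). Of the 4 chromatin genes 3 fell. UHRF1, which keeps DNA methylation after replication, was at 34.4 and 39.6 FPKM in control and 14.1 and 20.3 in fraction libraries (log2 change -1.08, SE 0.17, limma adjusted p = 0.0101). CHAF1A and CHAF1B, subunits of the histone chaperone CAF-1, changed by -0.52 and -0.47. SLBP, which binds histone mRNA, had 29.5 and 32.6 in control and 24.7 and 25.2 in fraction libraries, and did not pass (log2 difference -0.31, limma adjusted p = 0.0687).

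The 3 E2F factors all fell. E2F8, a repressor of the family (hg38 chromosome 11, 19224063 to 19241620, minus strand), had the largest change of the 51 genes on the log2(FPKM + 1) scale. It was at 5.03 and 6.12 FPKM in control and 1.73 and 1.46 in fraction libraries (log2 change -1.34, SE 0.12, limma adjusted p = 0.00189). E2F2, an activator present at a low level, went from 2.27 and 2.07 to 0.304 and 0.521 FPKM (log2 change -1.17, which the added 1 understates at such levels). In FPKM itself E2F2 was lowest against control, at 19.0%, and E2F8 stood at 28.7%. E2F1, the most abundant of the 3, was at 22.4 and 22.5 in control and 13.2 and 17.4 in fraction libraries (log2 change -0.53, limma adjusted p = 0.0337).

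**Figure D2:**
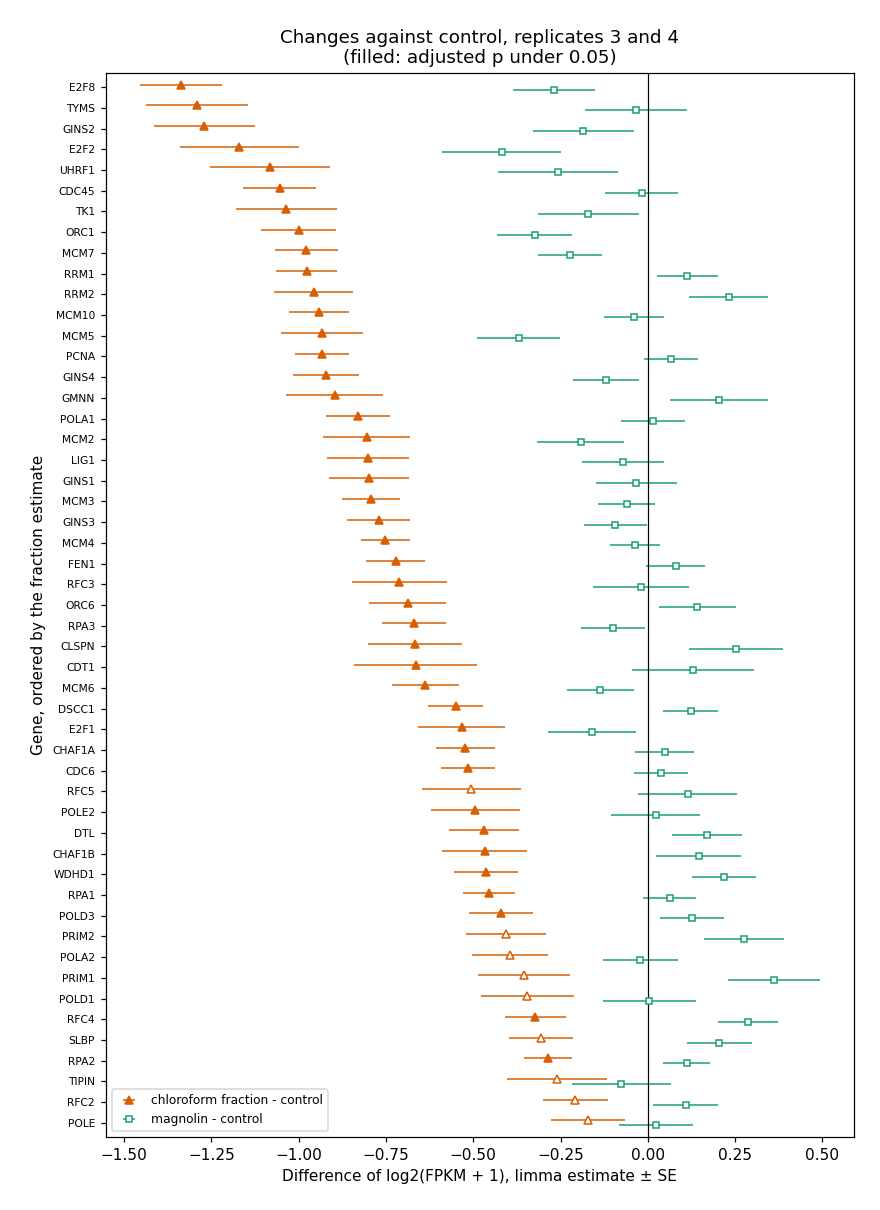
Difference of log2(FPKM + 1) from control in set B with its SE, for the fraction (triangles, filled where the adjusted p was under 0.05) and magnolin (squares), genes ordered by the fraction value. Fraction values run from -1.34 (E2F8) to -0.17 (POLE), and magnolin values from -0.42 to 0.36 with none called.

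Of the 42 genes called, 16 were called under all 12 alternatives tried: ORC1, MCM3, MCM4, MCM7, MCM10, CDC45, GINS2, GINS3, GINS4, POLA1, PCNA, FEN1, RRM1, RRM2, TYMS and E2F8. Across the 51 genes the log2 control level and the log2 change had r = -0.14 and rho = -0.17, a description over genes that share the same libraries. Of the 24 genes with an E2F word 21 were called, with a median of -0.78, and of the 19 matched genes without one 13 were called, with a median of -0.51. Both shares lie above the background of 11.6%. For 7 of the 51 genes (PCNA, RFC3, RFC5, FEN1, RPA2, RRM2 and TYMS) the tables also list pseudogenes of the same name, among which reads could have been split, and for 7 (MCM2, GINS4, POLA2, PRIM1, RRM2, TYMS and TIPIN) over 20% of exon bases lie in another gene. Values of these genes are less certain.

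Other cell cycle genes were read from lists drawn up with earlier results of these data known. Of 19 other origin genes 11 fell and 0 rose, led by CCNA2, the S phase cyclin (log2 change -1.70), TICRR (-0.77) and the kinase CDC7 (-0.71). Of 13 other replisome genes tested 5 fell, led by the PCNA partner PCLAF (-0.89), POLE3 (-0.60) and TIMELESS (-0.46). With the replicate block 3 of the 13 fell, without RFC1 and TOP1. Of 11 other nucleotide genes 5 fell, among them DUT (-0.58) and UNG (-0.46), which keep uracil out of DNA, and 1 rose. The latter, named after its value was seen, was TK2, the mitochondrial thymidine kinase (0.41, limma adjusted p = 0.0317, and 0.0629 with the replicate block). Of 7 other replicated-chromatin genes 6 fell, led by the histone chaperone ASF1B (-1.39), DNMT1 (-0.66) and ASF1A (-0.64).

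In the rest of the E2F and RB family, of 10 tested 1 fell, the E2F partner TFDP1 (-0.43), and 1 rose, E2F7, counts near the background of 11.6% lower and 8.33% higher. E2F7, the closest relative of E2F8, was at 11.6 and 11.7 FPKM in control and 25.7 and 22.1 in fraction libraries (log2 change 0.97, SE 0.10, limma adjusted p = 0.00287). Of 10 genes of the G1 list tested 3 fell and 2 rose. CDKN1A, the CDK inhibitor p21, was at 10.3 and 9.27 FPKM in control and 24.4 and 28.7 in fraction libraries (log2 change 1.35, limma adjusted p = 0.00127). CCND1, cyclin D1, changed by 0.89 and the inhibitor CDKN2C by -1.42.

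Of 19 fork checkpoint and repair genes tested 8 fell and 0 rose, led by RAD51AP1 (-1.40), FANCD2 (-1.09) and EXO1 (-0.81). All 20 mitosis markers fell, with a median of -1.84, led by KIF20A (-2.59), CCNB1 (-2.09) and DLGAP5 (-2.05). Their summed level went from 830 and 903 FPKM in control to 218 and 258 in fraction libraries, while that of the replication genes went from 1037 and 1111 to 598 and 651. No test compared the lists with each other. Of other markers, KRT8 (-0.87) and KRT18 (-0.75) of 5 epithelial, COL1A1 (-0.51) and COL1A2 (-1.08) of 2 fibroblast and CDH5 (-2.08) of 2 endothelial genes tested fell in the same libraries. The summed fibroblast markers were 25.2 and 19.7 FPKM in control and 9.85 and 10.5 in fraction libraries, and the endothelial ones 6.34 and 4.35 against 1.11 and 1.03. Their part in the result was not tested.

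**Figure D3:**
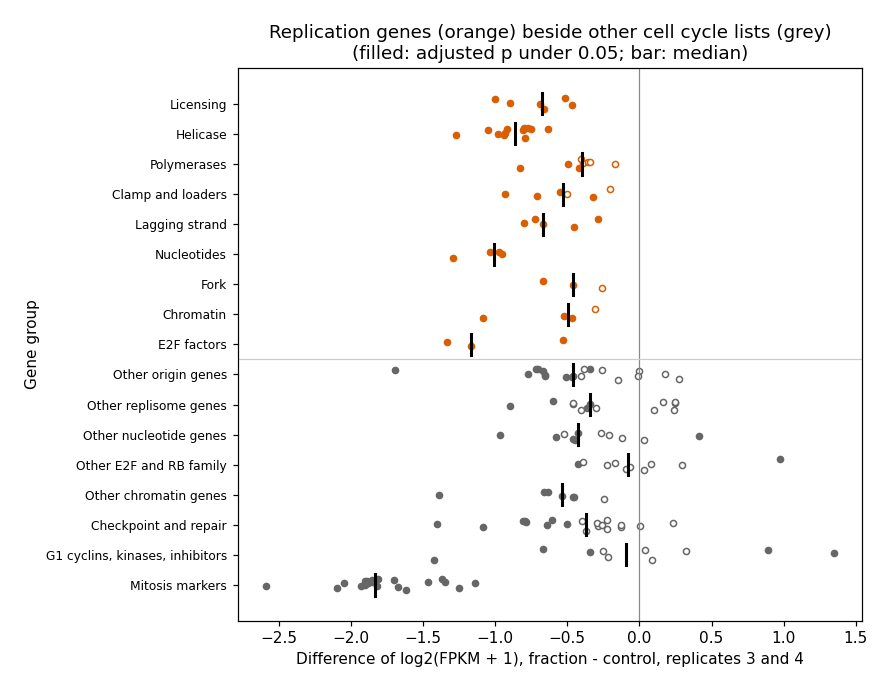
Difference of log2(FPKM + 1), fraction minus control in set B, with 1 point per gene (filled where the adjusted p was under 0.05) and a bar at each group's median, for the 9 roles of the replication genes (orange) and 8 further lists (grey). Medians of the roles lie between -1.17 (E2F factors) and -0.40 (polymerases), and the mitosis markers at -1.84.

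With magnolin in set B no replication gene passed the test. The count was 0 of 51 by limma, where 0.627% of all genes were called. At an unadjusted p under 0.05 there were 6 of 51 (11.8%), against 14.2% of all genes tested. Limma voom on rebuilt reads called 1, MCM5 (log2 change -0.43, adjusted p = 0.0279). The differences ran from -0.42 (E2F2) to 0.36 (PRIM1) with a median of 0.01, 24 below and 27 above 0, and with SEs of 0.07 to 0.18. All 12 helicase genes had negative differences, with a median of -0.11, while 5 of 6 licensing genes had positive ones. MCM5, a ring subunit, was at 15.0 and 15.9 FPKM in control and 11.3 and 12.1 in magnolin libraries, below control in both. PRIM1 was at 5.93 and 7.89 in control and 8.63 and 9.54 in magnolin libraries, above control in both. In 11 genes both magnolin libraries were below both controls and in 13 above, shares that 23.9% and 28.4% of all tested genes had. The 8 cell cycle lists also had 0 genes called with magnolin.

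The direct comparison of the fraction with magnolin in set B shares the fraction libraries with the first comparison. Limma called 45 of 51 genes lower in the fraction, 0 higher, where 9.36% of all genes were called lower, 5.55% higher and 14.9% in either direction. With the replicate block 39 were called lower, where 5.72% of all genes were. The median was -0.68, and all 51 genes had both fraction libraries below both magnolin libraries, as did 32.8% of all genes tested. TYMS had 12.9 and 12.1 FPKM in magnolin libraries (log2 change -1.26), RRM2 19.6 and 20.5 (-1.19), GMNN 15.3 and 19.7 (-1.10), RRM1 50.98 and 54.6 (-1.09), GINS2 6.21 and 7.72 (-1.09) and E2F8 4.496 and 4.39 (-1.07). For these 6 genes the magnolin values stood above every fraction value given above. POLA2, POLD1, POLE, RFC2, TIPIN and E2F1 were not called, with limma adjusted p between 0.0678 (POLA2) and 0.416 (TIPIN). The count was 24 with no filter on low values, a fit whose share of all genes is not given here. Far fewer genes were called without magnolin replicate 3 or without magnolin replicate 4. Medians over all fits without 1 library were -0.73 to -0.64. Magnolin is a single lignan and the fraction a mixture, and no doses are given in the labels used here, so the values are set side by side as labelled.

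In set A no replication gene passed in any comparison of the main fits, which have no replicate block. Neither did any of the 13103 genes tested (0% called). For the fraction against control the median was -0.11, with 39 of 51 differences negative. No gene reached an unadjusted p under 0.05 (0 of 51, against 0.817% of all genes), and limma voom called 0. In 11 genes both fraction libraries were below both controls, and 7.91% of all tested genes had that pattern. For magnolin against control the median was -0.36, with 49 of 51 negative. At an unadjusted p under 0.05 there were 2 (POLE2 and RFC3, 3.92% against 1.95% of all genes), and limma voom called 0. In 16 genes both magnolin libraries were below both controls and in 0 above, patterns that 13.6% and 12.7% of all tested genes had. With the replicate block POLE2 was called, at 9.30 and 10.1 FPKM in control and 5.54 and 4.37 in magnolin libraries (log2 change -0.85, adjusted p = 0.0434, where 0.992% of all genes were called). For the fraction against magnolin the median was 0.26, and without magnolin replicate 2 it was -0.06. Either tool called 0 genes, and 0 had an unadjusted p under 0.05 (0.710% of all genes). In 11 genes both fraction libraries were above both magnolin libraries and in 0 below, against 7.56% and 7.91% of all tested genes. In the main fits the median SE over the 51 genes was 0.31 in set A and 0.11 in set B. The set A value includes the shift that libraries of the same number share there, which the replicate block would take up.

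The set A magnolin difference lay mostly in 1 library. Against the control of the same number, magnolin replicate 2 was lower in 50 of 51 genes, with a median of -0.72 (57.0% of control), and magnolin replicate 1 in 29 of 51, with a median of -0.04 (96.7%). PCNA had 191 and 316 FPKM in controls 1 and 2, 200 and 144 in magnolin 1 and 2, and 148 and 240 in fraction 1 and 2. RRM2 had 73.9 and 25.6 in control, 68.1 and 13.9 in magnolin and 61.8 and 26.99 in fraction libraries, so that each library numbered 1 was above each library numbered 2. E2F8 had 7.41 and 5.73 in control, 5.02 and 1.84 in magnolin and 6.14 and 3.06 in fraction libraries. The mitosis markers moved with magnolin replicate 2 as well: they summed to 512 FPKM there, 1113 in control replicate 2 and 1031 in magnolin replicate 1. Without magnolin replicate 2 the set A magnolin median was -0.07, and without magnolin replicate 1 it was -0.66.

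For the fraction in set A, 34 of 51 genes were lower in replicate 1 (median -0.10) and 43 in replicate 2 (median -0.16). In set B all 51 were lower in both replicates, with medians of -0.66 and -0.71. MCM7 had 90.7 and 100.2 FPKM in set A controls and 89.8 and 75.2 in set A fraction libraries, both below both controls. TYMS had 8.11 and 14.0 in set A controls and 10.9 and 13.4 in fraction libraries, which overlap.

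**Figure D4:**
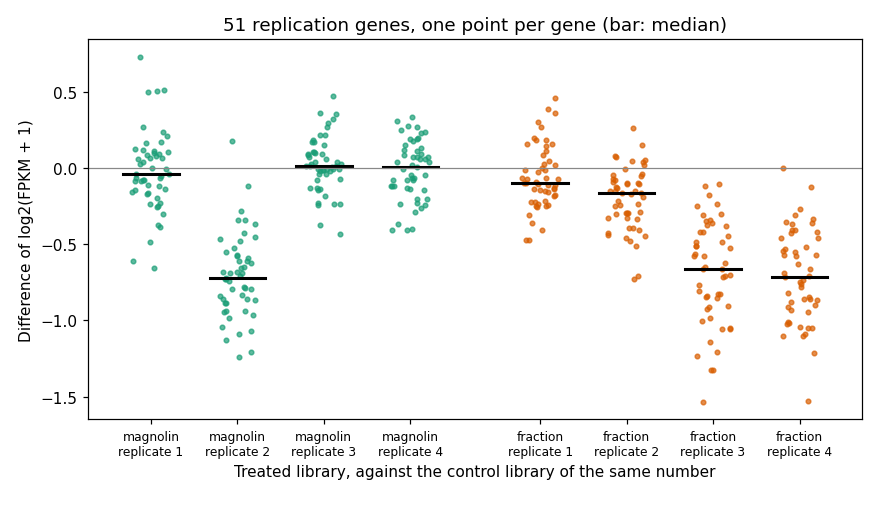
Difference of log2(FPKM + 1) of each treated NCI-H1975 library from the control library of the same number, with 1 point per gene for the 51 genes and a bar at the median. Medians lie at -0.66 and -0.71 for fraction replicates 3 and 4 and at -0.72 for magnolin replicate 2, and between -0.16 and 0.01 in the other 5 libraries.

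A fit of both sets with a term for the set called 0 of 51 genes for the fraction, where 0.00648% of all genes were called, and the median was -0.42. At an unadjusted p under 0.05 there were 17 (33.3%), against 10.1% of all genes. For magnolin it called 0, with 1 at an unadjusted p under 0.05 (1.96%, against 4.49% of all genes), a median of -0.17 and 0% of all genes called. That median was 0.01 without magnolin replicate 2. The difference between the sets was tested itself. For the fraction effect, set B minus set A, 0 genes were called (0% of all genes) and 14 were at an unadjusted p under 0.05 (27.5%, against 4.84% of all genes), with a median of -0.55 and 50 of 51 negative. For the magnolin effect 0 were called (0% of all genes) and the median was 0.38, where 2 had an unadjusted p under 0.05 (3.92%, against 4.19% of all genes). Without magnolin replicate 2 that median was -0.01. The difference was also fitted without the 3 libraries of replicate 1, a choice made after seeing the data. That fit leaves 1 set A library per group, so counts of genes passing are not read from it. Its set A effects are then replicate 2 against control replicate 2 alone, with medians of -0.16 for the fraction and -0.72 for magnolin. Limma voom was not run on both sets together.

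In parental HCC827 all 51 genes had at least 1 FPKM, with levels given side by side and no test because the tables were normalized separately. The 51 genes summed to 1278 and 1175 FPKM in HCC827, against 1037 and 1111 in set B control and 1293 and 1440 in set A control. The mean was above that of set B control for 32 genes and below for 19. In 13 genes both HCC827 libraries were above all 12 NCI-H1975 libraries: ORC1, CDT1, MCM2, MCM6, POLA2, POLD1, POLD3, POLE, RFC3, LIG1, TK1, WDHD1 and E2F2. No gene was below all 12. Over all 16284 genes with at least 1 FPKM in 2 or more libraries, 16.1% were above and 21.5% below in this way. ORC1 stood furthest above set B control, at 3.18 times its mean, and MCM10, an initiation factor, furthest below, at 0.470 times. Within the helicase ring MCM7 was the highest and MCM5 the lowest in HCC827, as in all 6 NCI-H1975 groups.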

How the data were processed

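The authors deposited gene-level FPKM values in 3 tables, made on hg38 per the submitters' processing notes, with the aligner and the counting tool not given in the sources used here. Levels set across tables were normalized separately. From the deposited FPKM and gene lengths, reads were rebuilt, and 100% of values up to 2000 reads came out whole within 0.05. Limma 3.58.1 in R 4.3.3 was fitted to log2(FPKM + 1), 3 groups of a set in 1 fit, after leaving out genes that did not reach FPKM 1 in 2 or more of the fitted libraries. P-values were adjusted by Benjamini-Hochberg over all genes tested, with a threshold of 0.05. Fold changes are on the log2(FPKM + 1) scale and understate low genes. The scripts were tested on simulated data. Every pair of libraries within a table differed by more than sampling noise, and pairs across tables were not checked.

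Members and lists were chosen with earlier results of these data known. Per-library values are given for the highest genes of each role, the 6 largest and 6 smallest changes in the set B fraction comparison, genes not called there, and up to 6 called elsewhere. From each other list up to 3 called genes are named, except 1 that is not reported here. The main fits had no term for the replicate number, which the replicate block adds as an alternative. Whether the numbers pair the libraries was read from the data and not the labels. Over 4 numbers the deviations of same-numbered libraries correlated at 0.29 to 0.84 (12 pairs, 9 best with their own number), which includes the difference between sets. Within set A they correlated at 0.70 to 0.74, a pairing that the main set A fits leave out. Within set B they correlated at -0.03 to 0.02, so no pairing was seen there. Alternatives were another pseudocount, no filter, median-ratio rescaling, the replicate block, 2 groups alone, limma voom on rebuilt reads and leaving out each library. In the HCC827 table, 2 columns whose names match no label were not used.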

Additional observations from a re-analysis of the deposited data

Results flagged for a closer look

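Each of the 51 genes, and the median over them, was checked in each NCI-H1975 group of 4 libraries for 1 library far from the other 3, by Dixon's ratio of the gap to the range on the log2(FPKM + 1) scale. Of 156 groups tested (153 of genes and 3 of medians) 6 stood out, all of genes. Chance alone flags about 1 in 20 groups, a rate that these 6 do not exceed. The values come from 2 tables normalized separately. Every library that stood out was numbered 1 or 2.

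CHAF1A was at 13.8 FPKM in control replicate 1, below 21.7 to 22.5 in the other 3. E2F2 was at 0.776 FPKM in the same library, below 2.07 to 2.27. GINS1 was at 6.90 FPKM in magnolin replicate 2, below 10.5 to 10.8, and E2F8 at 1.84 there, below 4.39 to 5.02. E2F1 was at 37.4 FPKM in magnolin replicate 1, above 18.1 to 20.3. MCM6 was at 28.8 FPKM in fraction replicate 2, above 18.8 to 19.0.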

How the results depend on the processing

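Set B fraction calls were all lower under every alternative run. The both-set magnolin median, -0.17, was 0.01 without magnolin replicate 2. The set B fraction count of 42 was 43 with a pseudocount of 0.1, 32 with no filter, 42 with median-ratio rescaling, 36 with the 2 groups alone, 46 with limma voom, and 16 to 40 on leaving out 1 library. The count of 45 for fraction against magnolin was 24 with no filter, 35 with the 2 groups alone, 46 with voom, and 5 to 43 on leaving out 1 library. In set B magnolin against control, voom called 1 gene. Leaving out 1 library of a compared group leaves 1, assumed to vary like the other groups, while the set B fraction median stayed between -0.76 and -0.64. The causes were not tested.

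With the replicate block as a term for the replicate number, the set B counts were 38 (fraction), 0 (magnolin) and 39 (fraction against magnolin). The set A magnolin count was 1 and the other set A and both-set counts were 0. Besides CDT1, POLE2, RFC4 and RPA2 above, the block ended the calls of CDT1, MCM2, POLE2, RFC3, RFC5 and E2F2 in fraction against magnolin (adjusted p 0.0502 to 0.0797). In the other lists of the set B fraction comparison it ended those of ORC3, RFC1, TOP1, DCK, TK2, FANCA and CDKN1B.

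The comparison of resistant with parental HCC827 was not run, because 2 column names match no label. With 2 libraries a group and 15962587 to 17039090 reads per library in set B, E2F2, at 0.304 and 0.521 FPKM in fraction libraries, was the least abundant gene, and counts of calls depend on single control or magnolin libraries.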
